A study of Arabidopsis thaliana with 24 samples.

Results

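The 10 genes described here are widely used as reporters of the response of Arabidopsis thaliana to singlet oxygen. They were chosen by their gene identifiers, and 10 of 10 were found among the 18240 genes of the deposited table. The choice was made with earlier results of these data known, so counts beside the shares of all genes describe the members and test nothing. Their transcripts were counted in 24 libraries of wild-type seedlings of the ecotype Columbia-0, grown on Murashige and Skoog medium with sucrose under long days for 7 days, with 3 biological replicates in each of 8 groups. Each replicate pooled 30 to 50 seedlings, which were parted into roots and shoots after the treatment. The solution held 30% (w/v) PEG, polyethylene glycol with an average molecular weight of 8000, and seedlings spent 1, 2 or 3 h in it. Controls spent 1 h in water. PEG does not enter the cells and draws water out of the tissue, and the solution had an osmotic pressure of -2 MPa. Roots and shoots therefore gave 4 groups each, and the single water time served as the reference for all 3 PEG times. The title of the series also names histidine, a quencher of singlet oxygen, and SHAM, an inhibitor of lipoxygenases, and no such libraries were analysed here.

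Singlet oxygen is an excited form of molecular oxygen. In green tissue it arises mostly where light-excited chlorophyll passes energy to oxygen in the plastid. The flu mutant, which builds up a chlorophyll precursor in the dark and releases singlet oxygen when it is moved to light, gave the classical list of genes that respond within minutes to this oxygen species. Several of the same genes also respond to wounding, touch, cold, salt or pathogens, so their name as reporters describes their use rather than an exclusive trigger. By role, BAP1 and BAP2 encode small C2 domain proteins that bind membranes and hold back cell death, and AT3G28580 encodes an AAA-type ATPase. AT5G64870 encodes a nodulin-like protein of the flotillin family, which is found in membrane microdomains. OXI1 encodes an AGC protein kinase that acts upstream of the mitogen-activated kinases MPK3 and MPK6. SZF1 and SZF2 encode tandem CCCH zinc finger proteins, CAF1a and CAF1b encode deadenylases that shorten the poly(A) tails of messenger RNA, and SIB1 encodes a VQ motif protein that binds the plastid sigma factor SIG1 and the transcription factor WRKY33.

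The stretch around the annotated gene start is shown for SZF1, which, like SZF2, was called higher at each hour in both organs. It runs 5′ to 3′ on the coding strand from 250 bases before the gene start to 50 bases after it, in the RefSeq annotation of TAIR10.1. It was found by gene identifier, since the deposited table holds no positions and names no genome build. Capitals mark TTGAC, the core of the W-box, which WRKY factors bind, read on both strands.
SZF1, chr3:20775970-20776269, plus strand: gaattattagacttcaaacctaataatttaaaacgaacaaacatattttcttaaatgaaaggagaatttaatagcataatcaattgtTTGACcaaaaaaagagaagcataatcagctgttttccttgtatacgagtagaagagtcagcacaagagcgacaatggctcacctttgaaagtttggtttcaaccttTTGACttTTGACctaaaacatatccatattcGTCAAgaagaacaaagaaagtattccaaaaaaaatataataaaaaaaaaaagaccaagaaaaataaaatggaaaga
The window held 4 matches, 163, 57, 50 and 26 bases before the gene start. Of the 27443 windows of the same length in the annotation, 50.5% held at least 1 match and 1.11% held at least 4. The other 4 motifs searched on both strands, each of other stress response factors, had 0 matches here, namely the rapid stress response element CGCGTT (in 3.4% of all windows), the ABRE core ACGTG (26.7%), the DRE core CCGAC (15%) and the GCC box GCCGCC (2.57%). The matches describe letters in a window and say nothing on whether a factor binds there.

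The libraries held between 1332586 counts (PEG 1 h replicate 3) and 5495746 counts in roots, and between 343397 counts (PEG 2 h replicate 2) and 4009409 counts in shoots. The shallow shoot library makes a value of 1 count worth more there, and 3 counts correspond there to 7.95 CPM (counts scaled to library size), against 0.762 to 1.2 CPM in the other shoot libraries. These limits cover counting error only. The organs matched their labels. In all, 10 photosynthesis genes took 0.0353% to 0.079% of the counts in roots and 6.17% to 7.31% in shoots. A list of 11 root genes took 0.0577% to 0.16% in roots and 0.00175% to 0.00465% in shoots. Library codes carry a digit whose meaning the labels do not give. It was 5 in the 3 root water libraries and in PEG 1 h replicate 1, and 6 in the other 8 root PEG libraries. In shoots it was 4 after water, after PEG for 1 h and in the first 2 replicates after PEG for 2 h, and 5 in the rest. In each organ only 1 group holds both digits, PEG 1 h in roots and PEG 2 h in shoots, so a fit with the digit as a term takes the effect of the digit from the 3 libraries of that group, the shallow library among them in shoots. No member overlaps another gene in the TAIR10.1 annotation. Of the 471 words of 30 bases in the last 500 bases of each transcript, 3 each of CAF1a and CAF1b recur elsewhere in the genome and none of the other 8 members' words do.

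After 1 h in PEG, transcripts of the reporters rose in roots. CPM below were scaled within the organ, and ± gives the SD over 3 libraries beside a mean and the standard error beside a log2 fold change. A value in parentheses beside an adjusted p is a log2 fold change, or for the organs a difference of log2 fold changes. A gene was called at an adjusted p under 0.05 in the quasi-likelihood test of edgeR, adjusted by the Benjamini-Hochberg method over all genes tested. Of the 10 members, 8 had enough counts to be tested in roots, and 8 of those 8 were called higher at 1 h, where 11.5% of all genes tested were called higher, 9.06% lower and 20.5% in either direction. At 2 h 5 of 8 were called higher (12.7% higher, 12.3% lower and 25.1% called among all genes), and at 3 h 4 of 8 (21.1%, 19.5% and 40.6%). At 2 h BAP1 and CAF1b missed the threshold narrowly (adjusted p = 0.054 and 0.066). SIB1 passed the filter through its PEG libraries alone and so had to differ; without it, 7 of 7, 4 of 7 and 3 of 7 were called higher. The median log2 fold change of the 8 tested, SIB1 included, was 1.90, 1.13 and 0.72 at 1, 2 and 3 h, against 0.03, 0.06 and 0.07 over all genes tested. Since roots are a mixture of cell types, fewer cells of a type and less RNA per cell cannot be told apart in these values. The 11 root marker genes took 0.11% to 0.119%, 0.0882% to 0.0942% and 0.0577% to 0.0739% of the counts after 1, 2 and 3 h in PEG, against 0.145% to 0.16% after water. Of the 11, 4, 8 and 8 were called lower and 0, 0 and 1 higher (3, 7 and 7 lower and none higher among the 9 that did not pass the filter through water or PEG libraries alone), and 2 were at 0 in PEG 1 h replicate 3, with none at 0 in the other root libraries. The 10 photosynthesis genes took 0.0388% to 0.079% of the counts in root PEG libraries, against 0.0353% to 0.0454% in root water libraries, and 0 of 10 were called. The part of either list in the changes of the reporters was not tested.

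In shoots the reporters that were called were higher after PEG, apart from AT3G28580. Of the 9 members tested there, 4 were called higher at 1 h (4.25% higher, 1.07% lower and 5.32% called among all genes). Later there were 6 higher and 1 lower at 2 h (8.19% higher, 5.65% lower and 13.8% called), and 4 higher and 1 lower at 3 h (14.5%, 11.5% and 26%). OXI1 passed the filter in shoots through PEG libraries alone and AT3G28580 through water libraries alone, so that both had to differ. Without them, 3, 5 and 3 of 7 were called higher and none lower. The median log2 fold change of the 9 tested, OXI1 and AT3G28580 included, was 0.51, 0.76 and 0.19, against 0.00, 0.01 and 0.01 over all genes tested. All 3 PEG times of an organ share their 3 water libraries.

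**Figure D1:**
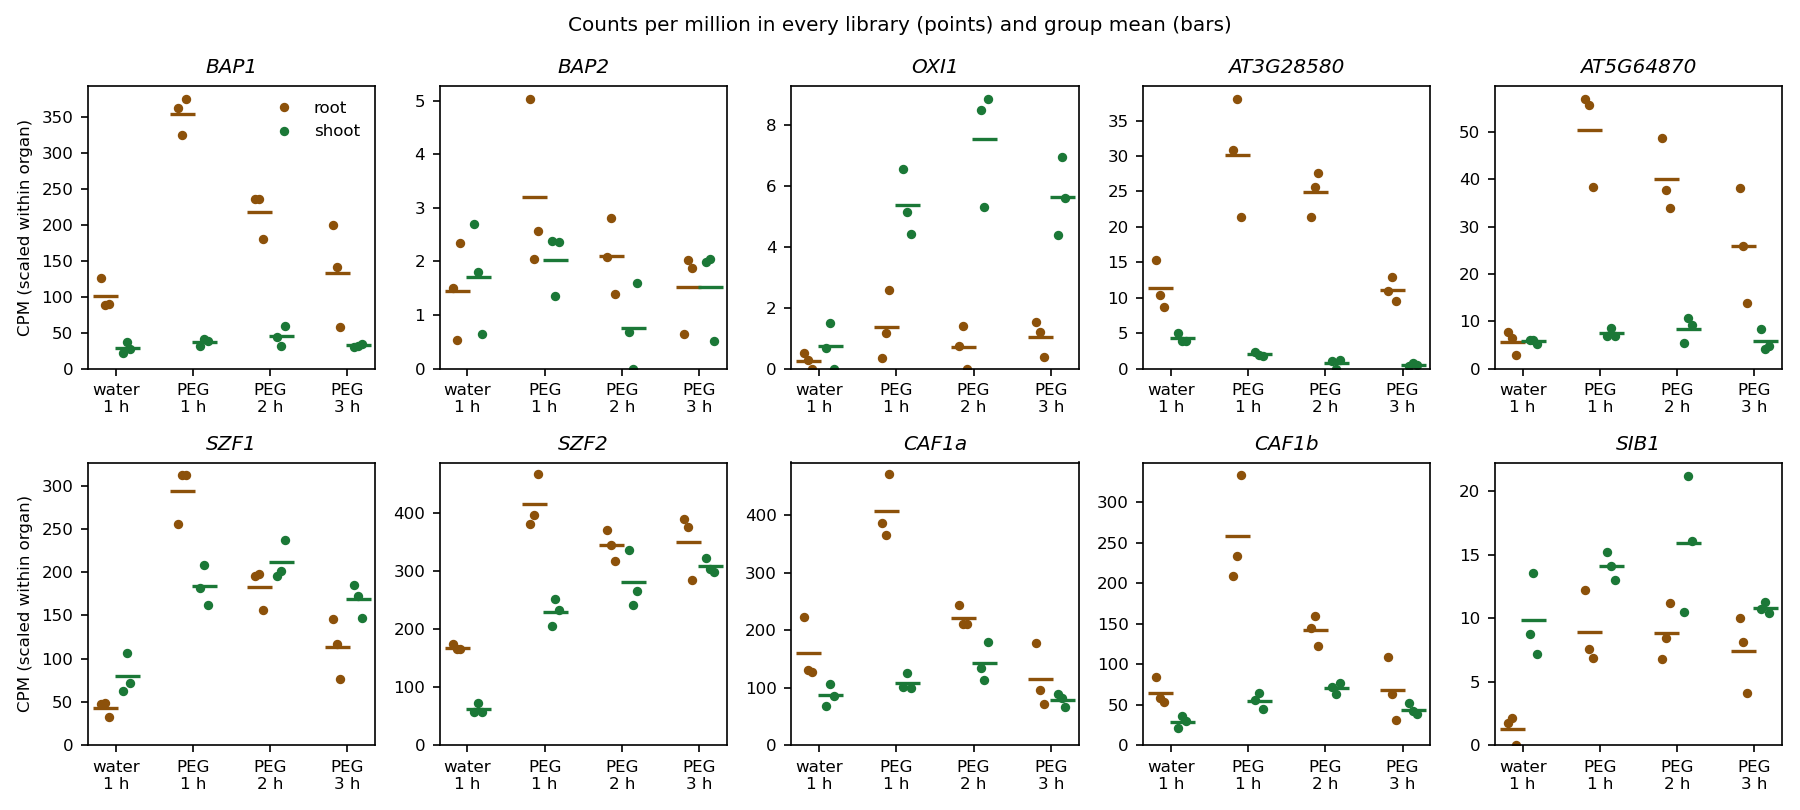
CPM of the 10 genes in each of the 24 libraries (points) with the mean of each group of 3 (bars), by treatment on the x axis, roots in brown left of shoots in green. CPM are scaled within each organ, and each panel has its own y axis starting at 0. BAP1, CAF1a and CAF1b stand highest in roots after 1 h, and OXI1 rises above its water level in shoots. AT3G28580 lies above its water level in roots after 1 h and 2 h and, at low counts, below it in shoots.

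AT5G64870 (chr5:25929432-25931384, minus strand), the flotillin family gene, responded in roots and not detectably in shoots. The 3 root libraries held 7.77, 6.37 and 2.8 CPM after water, 57.1, 55.8 and 38.4 CPM after 1 h in PEG, 48.7, 37.8 and 33.9 CPM after 2 h and 38.3, 25.9 and 13.9 CPM after 3 h. Every root PEG library lay above every root water library, and the group mean was highest at 1 h. Shoots held 6.05, 6.01 and 5.22 CPM after water. They held 6.84, 8.66 and 6.78 CPM after 1 h in PEG, 5.42, 10.6 and 9.22 CPM after 2 h and 8.34, 4.1 and 4.82 CPM after 3 h. The shoot group at 1 h lay narrowly above water, and those at 2 h and 3 h overlapped it. In roots the log2 fold change over water was 3.20 ± 0.41 (adjusted p = 0.00019) at 1 h, 2.85 ± 0.40 (adjusted p = 0.00027) at 2 h and 2.20 ± 0.41 (adjusted p = 0.0012) at 3 h. The shoot values were 0.37 (adjusted p = 0.61), 0.39 (adjusted p = 0.5) and -0.06 (adjusted p = 0.92). The root response exceeded the shoot response at each hour, by 2.62 ± 0.53 (adjusted p = 0.0028), 2.38 ± 0.57 (adjusted p = 0.0087) and 2.27 ± 0.55 (adjusted p = 0.0046) on the log2 scale. When the digit of the library codes entered the fit, the root call at 3 h was lost (2.43, adjusted p = 0.052), and so were the differences between the organs at 2 h and 3 h (2.91, adjusted p = 0.087, and 3.09, adjusted p = 0.1). The difference at 2 h was also lost without shoot PEG 2 h replicate 1 (2.06, adjusted p = 0.055).

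Its flotillin relative FLOT1 went the other way in roots. FLOT1 (AT5G25250) averaged 7.78 ± 0.894, 4.88 ± 1.77 and 5.13 ± 2.04 CPM in roots after 1, 2 and 3 h in PEG, against 18.1 ± 0.684 CPM after water, and fell at each hour (-1.18 with adjusted p = 0.0069, -1.90 with adjusted p = 6.6e-05 and -1.79 with adjusted p = 4.5e-05). In shoots FLOT1 fell at 3 h (-0.95, adjusted p = 0.043), as did FLOT2 (AT5G25260; -1.57, adjusted p = 0.003), and neither was called there at 1 or 2 h. The root calls of FLOT1 were lost with the digit as a term (adjusted p = 0.17, 0.095 and 0.086), while in shoots both were called lower at 2 h and 3 h. FLOT2 had too few counts in roots to be tested.

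AT3G28580 (chr3:10715597-10717393, plus strand), the AAA-type ATPase gene, was called higher in roots at 1 h and 2 h. In shoots it was called lower at 2 h and 3 h. In roots the 3 libraries held 15.3, 10.3 and 8.64 CPM after water. They held 30.9, 38 and 21.4 CPM after 1 h in PEG, 21.3, 25.6 and 27.6 CPM after 2 h and 10.9, 12.9 and 9.55 CPM after 3 h. The groups at 1 h and 2 h lay wholly above water, and the group at 3 h overlapped it. Shoot counts were low, with 15, 13 and 12 counts after water (5.04, 3.9 and 3.92 CPM), 8, 7 and 6 counts after 1 h in PEG, 3, 0 and 3 after 2 h and 1, 3 and 2 after 3 h. Every shoot PEG library lay below every shoot water library in CPM, although the count of 0 came from the shallow library, where it allows up to 7.95 CPM. In roots the gene rose by 1.45 ± 0.23 (adjusted p = 0.0002) at 1 h and 1.11 ± 0.23 (adjusted p = 0.0013) at 2 h, and was at -0.04 (adjusted p = 0.92) at 3 h. In shoots the log2 fold change was -1.07 (adjusted p = 0.15) at 1 h, which was not called, -2.02 ± 0.54 (adjusted p = 0.016) at 2 h and -2.80 ± 0.51 (adjusted p = 0.00034) at 3 h. The difference between the responses was 2.31 ± 0.46 (adjusted p = 0.0015), 3.03 ± 0.57 (adjusted p = 0.00081) and 2.78 ± 0.57 (adjusted p = 0.0008), all with the root value above the shoot value. At 2 h the shoot value was farther from 0 than the root value, and at 3 h the root value was near 0, so the difference was that of the shoot. In shoots the gene passed the filter through water libraries alone and so had to be lower after PEG. The digit as a term ended the calls in roots at 2 h (1.08, adjusted p = 0.15), in shoots at 3 h (-3.22, adjusted p = 0.092) and between the organs at 3 h (3.17, adjusted p = 0.26). In shoots the 2 h call did not hold with PEG 2 h replicate 1 or water replicate 1 left out (adjusted p = 0.1 and 0.067).

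Among 6 neighbouring genes of the same ATPase family, 2 were in the table and 1 had enough counts to be tested, in shoots only. That gene, AT3G28540, averaged 0.847 ± 0.531, 0.38 ± 0.403 and 1.33 ± 0.172 CPM in shoots after 1, 2 and 3 h in PEG, against 4.04 ± 0.457 CPM after water. It was called lower at each hour (-2.18 with adjusted p = 0.011, -2.88 with adjusted p = 0.0065 and -1.56 with adjusted p = 0.016), but it passed the filter through its water libraries alone and so had to differ. In roots 0 counts of it were found in any library.

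BAP1 (AT3G61190, chr3:22650159-22651636, minus strand) rose for a short time in roots. In roots the 3 libraries held 126, 88.1 and 90.4 CPM after water. They held 364, 326 and 376 CPM after 1 h in PEG, 236, 236 and 181 CPM after 2 h and 199, 141 and 58.3 CPM after 3 h. The groups at 1 h and 2 h lay wholly above water, while the 3 libraries at 3 h spread across the water values on both sides. Shoots held 21.2, 36.3 and 27.1 CPM after water. They held 31.8, 41.2 and 37.7 CPM after 1 h in PEG, 43.4, 31.8 and 59.3 CPM after 2 h and 30.6, 31.5 and 34.5 CPM after 3 h, with overlap between water and PEG at each hour. The root log2 fold change was 1.81 ± 0.37 (adjusted p = 0.0083) at 1 h, 1.1 ± 0.36 (adjusted p = 0.054) at 2 h and 0.39 ± 0.36 (adjusted p = 0.43) at 3 h. In shoots it was 0.38 ± 0.20 (adjusted p = 0.34), 0.76 ± 0.21 (adjusted p = 0.021) and 0.19 ± 0.21 (adjusted p = 0.53). Between PEG at 3 h and PEG at 1 h, BAP1 fell in roots by 1.42 on the log2 scale (SE 0.36, adjusted p = 0.031), a call kept under 9 of 16 alternatives and lost without any of the PEG 1 h replicates or without PEG 3 h replicate 2 (-1.46 to -1.32, adjusted p = 0.07 to 0.098). The 1 h call was lost with the digit as a term (1.84, adjusted p = 0.083), while the 2 h value was called by DESeq2 (1.06, adjusted p = 0.03) and with the replicate block (1.11, adjusted p = 0.034). The 2 h value was also called in the fit of all 24 libraries (1.01, adjusted p = 0.018) and in the authors' deposited table (0.99, adjusted p = 0.011). Without PEG 3 h replicate 3 the 3 h value was called as well (0.75, adjusted p = 0.0028). In shoots the 2 h call was lost under 6 of 16 alternatives, among them the fits without PEG 2 h replicate 3 (0.52, adjusted p = 0.14) and without water replicate 1 (0.59, adjusted p = 0.13) or 3 (0.73, adjusted p = 0.071).

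BAP2 (AT2G45760, chr2:18846944-18847835, minus strand), the homologue of BAP1, was close to the limit of detection. Its counts in roots were 6, 2 and 10 after water and 14, 7 and 3 after 1 h in PEG, 11, 10 and 4 after 2 h and 3, 12 and 10 after 3 h. In shoots they were 8, 6 and 2 after water and 8, 5 and 8 after 1 h in PEG, 2, 0 and 4 after 2 h and 5, 8 and 2 after 3 h. No group stood apart from the others, and the gene passed the filter on low counts in neither organ. Without the filter its log2 fold change at 1 h was 1.04 ± 0.55 in roots (adjusted p = 0.24) and 0.23 ± 0.56 in shoots (adjusted p = 0.91). A response of BAP2 was thus not detectable at this depth. BON2, the copine partner gene of the BAP proteins that was in the table, rose in shoots at 3 h (0.67, adjusted p = 0.037) and was not called in the other 5 comparisons of PEG with water. Its call was lost with the digit as a term (0.33, adjusted p = 0.65).

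OXI1 (AT3G25250, chr3:9195334-9197126, plus strand) was called in shoots and lay below the filter in roots. Shoot counts were 2, 5 and 0 after water, 22, 19 and 15 after 1 h in PEG, 25, 2 and 22 after 2 h, of which the 2 counts came from the shallow library, and 11, 27 and 22 after 3 h. In CPM these were 0.673, 1.5 and 0 after water, and 6.55, 5.14 and 4.42 after 1 h in PEG, 8.47, 5.3 and 8.82 after 2 h and 4.37, 6.92 and 5.59 after 3 h. Each of the 9 shoot PEG libraries lay above each of the 3 water libraries. The log2 fold change was 2.78 ± 0.52 (adjusted p = 0.0016) at 1 h, 3.40 ± 0.53 (adjusted p = 0.00014) at 2 h and 2.87 ± 0.52 (adjusted p = 0.00029) at 3 h. In shoots the gene passed the filter through PEG libraries alone, with 0 of 3 water libraries over it, and so had to differ. Root counts were 2, 1 and 0 after water, and 1, 4 and 3 after 1 h in PEG, 4, 5 and 0 after 2 h and 7, 7 and 2 after 3 h. PEG and water libraries overlapped in roots at each hour, and without the filter no root hour was called (adjusted p = 0.24, 0.4 and 0.14). The difference between the organs was -0.98 ± 1.46 (adjusted p = 0.77), -2.00 ± 1.43 (adjusted p = 0.45) and -0.99 ± 1.40 (adjusted p = 0.7). At these root counts a difference between the organs was not detectable.

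Around OXI1, 6 of 8 listed pathway and related kinase genes could be tested in roots and 7 in shoots. MPK3 averaged 2.8 ± 0.912, 3.23 ± 0.546 and 3.2 ± 1.72 CPM in roots after 1, 2 and 3 h in PEG, against 0.422 ± 0.164 CPM after water, and was called higher at each hour (2.57 with adjusted p = 0.01, 2.85 with adjusted p = 0.0016 and 2.87 with adjusted p = 0.00072). It passed the filter through PEG libraries alone, which favours a rise, and with the digit as a term it was called at 3 h only (adjusted p = 0.052, 0.06 and 0.041). PTI1-4, a kinase that OXI1 phosphorylates, rose in shoots at each hour (0.80 with adjusted p = 0.028, 0.97 with adjusted p = 0.0074 and 1.05 with adjusted p = 0.00077). UCNL, an AGC kinase gene related to OXI1, rose in roots at 2 h (0.42, adjusted p = 0.038), and PDK1 and MPK6 were called in neither organ. The genes called, all higher, were 1, 2 and 1 of 6 in roots, or 0, 1 and 0 of 5 without MPK3, beside 11.5%, 12.7% and 21.1% of all genes called higher. In shoots they were 1, 1 and 1 of 7, beside 4.25%, 8.19% and 14.5%. These are too few to set the list apart from all genes. With the digit as a term the call of UCNL (0.69, adjusted p = 0.13) and that of PTI1-4 at 3 h (0.81, adjusted p = 0.15) were lost.

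SZF1 (AT3G55980, chr3:20776220-20778952, plus strand) rose at each hour in both organs. In roots the 3 libraries held 47.6, 48.6 and 32.9 CPM after water. They held 256, 313 and 313 CPM after 1 h in PEG, 196, 198 and 156 CPM after 2 h and 145, 117 and 77 CPM after 3 h. Shoots held 62.2, 106 and 71.8 CPM after water. The others held 182, 208 and 162 CPM after 1 h in PEG, 196, 201 and 237 CPM after 2 h and 186, 173 and 148 CPM after 3 h. In both organs every PEG library lay above every water library. Root log2 fold changes were 2.77 ± 0.22 (adjusted p = 6.3e-07), 2.1 ± 0.21 (adjusted p = 4.3e-06) and 1.40 ± 0.21 (adjusted p = 0.00013), and shoot log2 fold changes were 1.20 ± 0.18 (adjusted p = 0.00017), 1.40 ± 0.19 (adjusted p = 2.3e-05) and 1.07 ± 0.18 (adjusted p = 0.00016). At 1 h the root response was above the shoot response by 1.35 ± 0.28 (adjusted p = 0.0029), a difference not called at 2 h (0.60, adjusted p = 0.22) or 3 h (0.33, adjusted p = 0.48). Without shoot PEG 2 h replicate 3 it was called at 2 h as well (1.05, adjusted p = 0.027). In roots SZF1 then fell by 1.38 on the log2 scale between PEG at 3 h and PEG at 1 h (SE 0.20, adjusted p = 0.00048). With the digit as a term, the calls at 3 h were lost in roots (1.11, adjusted p = 0.075) and shoots (0.81, adjusted p = 0.079), as was the difference between the organs at 1 h (1.18, adjusted p = 0.073).

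SZF2 (AT2G40140, chr2:16771997-16774734, plus strand), its close homologue, also rose at each hour in both organs, with larger log2 fold changes in shoots. Root libraries held 174, 165 and 166 CPM after water. They held 382, 396 and 466 CPM after 1 h in PEG, 370.1, 345 and 317 CPM after 2 h and 389, 376 and 285 CPM after 3 h. Shoots held 57.2, 73.3 and 56.1 CPM after water. They held 206, 251 and 232 CPM after 1 h in PEG, 335, 241 and 265 CPM after 2 h and 323, 303 and 298 CPM after 3 h. No PEG library overlapped the water libraries of its organ, and the shoot group mean was highest at 3 h. The log2 fold changes were 1.30 ± 0.13 (adjusted p = 8.4e-07), 1.03 ± 0.13 (adjusted p = 5.7e-06) and 1.06 ± 0.13 (adjusted p = 2.8e-06) in roots, against 1.88 ± 0.16 (adjusted p = 1.9e-07), 2.19 ± 0.17 (adjusted p = 1.7e-08) and 2.30 ± 0.17 (adjusted p = 4.7e-09) in shoots. The difference, root minus shoot, was -0.81 ± 0.21 (adjusted p = 0.014), -1.25 ± 0.21 (adjusted p = 0.00026) and -1.24 ± 0.21 (adjusted p = 8.5e-05). Of these the 1 h difference was kept under 6 of 19 alternatives (range -0.95 to -0.48, with a highest adjusted p of 0.31). It was lost without root PEG 1 h replicate 1 (-0.51, adjusted p = 0.25) or 2 (-0.60, adjusted p = 0.26) and without any root water replicate, any shoot PEG 1 h replicate or shoot water replicate 3 (-0.69 to -0.48). The differences at 2 and 3 h and all 6 calls against water were kept under every alternative run.

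Several other tandem CCCH zinc finger genes were called higher. Of 9 listed relatives of SZF1 and SZF2, 7 could be tested in each organ, and 6, 6 and 6 were called higher in roots and 4, 3 and 5 in shoots at 1, 2 and 3 h, with none lower. Among all genes 11.5%, 12.7% and 21.1% were called higher in roots and 4.25%, 8.19% and 14.5% in shoots. With the digit as a term the counts became 1, 1 and 2 of 7 in roots and 5, 3 and 1 of 7 in shoots. Their median log2 fold change was 0.56, 0.46 and 0.80 in roots and 0.75, 0.67 and 0.76 in shoots. TZF3 averaged 135 ± 21.2 CPM in roots after 3 h in PEG, against 33.8 ± 4.27 CPM after water (2.00, adjusted p = 1.8e-08). TZF9 averaged 52.4 ± 4.96 CPM in shoots after 3 h in PEG, against 16.2 ± 2.07 CPM after water (1.69, adjusted p = 1.4e-06). At 3 h in roots TZF1 was at 0.87 (adjusted p = 3.9e-05) and TZF2 at 0.80 (adjusted p = 5.7e-05). Of these 4 values, that of TZF1 was lost with the digit as a term (0.72, adjusted p = 0.067).

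CAF1a (AT3G44260, chr3:15952008-15953346, minus strand) rose in roots at 1 h and in shoots at 2 h. Root libraries held 223, 129.8 and 127 CPM after water. They held 386, 365 and 472 CPM after 1 h in PEG, 243, 211 and 209.9 CPM after 2 h and 178, 95.5 and 71.7 CPM after 3 h. The 1 h group lay above water, and the groups at 2 h and 3 h overlapped it. Shoots held 67.3, 106 and 85.2 CPM after water. They held 101, 126 and 98.4 CPM after 1 h in PEG, 134, 114 and 179 CPM after 2 h and 88.1, 82.5 and 66.5 CPM after 3 h. In shoots the 2 h group lay above water, and the groups at 1 h and 3 h overlapped it. The log2 fold change was 1.35 ± 0.33 (adjusted p = 0.017), 0.47 ± 0.32 (adjusted p = 0.33) and -0.48 ± 0.32 (adjusted p = 0.27) in roots, against 0.33 ± 0.19 (adjusted p = 0.38), 0.76 ± 0.19 (adjusted p = 0.012) and -0.13 ± 0.19 (adjusted p = 0.65) in shoots. Between PEG at 3 h and PEG at 1 h, CAF1a fell in roots by 1.82 on the log2 scale (SE 0.33, adjusted p = 0.0056), a call kept under all 16 alternatives. The root call at 1 h was lost under 6 of 16 alternatives, among them the digit as a term (1.27, adjusted p = 0.19) and the fits without PEG 1 h replicate 2 or 3 or without water replicate 2 or 3 (1.15 to 1.37, adjusted p = 0.053 to 0.071). The shoot call at 2 h was lost under 5 of 16, including the fits without PEG 2 h replicate 3 (0.55, adjusted p = 0.067) and without water replicate 1 (0.60, adjusted p = 0.085), and the root value at 3 h was called lower without PEG 3 h replicate 1 (-0.94, adjusted p = 0.0054).

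CAF1b (AT5G22250, chr5:7365477-7366799, minus strand) was called higher in roots at 1 h and in shoots at each hour. Its root value at 2 h and its shoot value at 3 h lay near the threshold. Root libraries held 83.8, 57.8 and 52.5 CPM after water. They held 208, 234 and 333 CPM after 1 h in PEG, 145, 159.8 and 123 CPM after 2 h and 109, 62.7 and 31.3 CPM after 3 h. Shoots held 21.2, 35.4 and 30 CPM after water. The others held 55.6, 63.6 and 44.5 CPM after 1 h in PEG, 71.2, 63.6 and 77 CPM after 2 h and 51.6, 41.5 and 37.8 CPM after 3 h. Every shoot PEG library lay above every shoot water library, and the root groups at 1 h and 2 h lay above water. Root log2 fold changes were 1.98 ± 0.40 (adjusted p = 0.0082), 1.14 ± 0.40 (adjusted p = 0.066) and 0.06 ± 0.40 (adjusted p = 0.93), against 0.91 ± 0.19 (adjusted p = 0.005), 1.31 ± 0.20 (adjusted p = 0.00013) and 0.58 ± 0.20 (adjusted p = 0.032) in shoots. Between PEG at 3 h and PEG at 1 h the root level fell by 1.93 on the log2 scale (SE 0.40, adjusted p = 0.013). The root call at 1 h was lost with the digit as a term (1.69, adjusted p = 0.13), and the 2 h value was called by DESeq2 (1.1, adjusted p = 0.037). The 2 h value was also called in the fit of all 24 libraries (1.04, adjusted p = 0.019) and in the authors' deposited table (1.02, adjusted p = 0.013). In shoots the 3 h call was kept under 7 of 16 alternatives (range 0.40 to 0.73). It was lost among others without PEG 3 h replicate 1 or 2 (0.45 and 0.62) or water replicate 1 or 3 (0.40 and 0.61). DESeq2 (0.55, adjusted p = 0.07) and the authors' deposited table (0.50, adjusted p = 0.33) did not call it either. In shoots the 1 h call was lost in the fit of all 24 libraries (0.91, adjusted p = 0.12) and in the authors' deposited table (0.87, adjusted p = 0.12). The fall in roots between the hours did not hold with PEG 3 h replicate 2 left out (-1.88, adjusted p = 0.061).

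Of 12 listed relatives of CAF1a and CAF1b and subunits of the CCR4-NOT complex, 6 could be tested in roots and 9 in shoots. In roots 1, 0 and 2 were called at 1, 2 and 3 h and in shoots 0, 0 and 2, all higher. Among all genes 11.5%, 12.7% and 21.1% were called higher in roots and 4.25%, 8.19% and 14.5% in shoots, so these few calls do not set the list apart. At an unadjusted p under 0.05 there were 3 of 6 in roots at 2 h and 1 and 2 of 9 in shoots at 1 and 2 h. No share of all genes was computed at that threshold, so these counts have no scale beside them. The list had a median log2 fold change of -0.21, 0.23 and 0.28 in roots and of 0.23 in shoots at 3 h. AT1G06450 rose in roots at 1 h (1.20, adjusted p = 0.023) and 3 h (1.21, adjusted p = 0.0067), and NOT1, the scaffold subunit, at 3 h (0.46, adjusted p = 0.034). In shoots at 3 h AT1G15920 rose (0.98, adjusted p = 0.02). AT1G61470 was called there as well (1.56, adjusted p = 0.016), but it passed the filter through PEG libraries alone, which favours a rise. None of these 5 calls was kept with the digit as a term (adjusted p = 0.2 to 0.94).

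SIB1 (AT3G56710, chr3:21006638-21008068, minus strand) rose in roots, where it was barely detected in water. Root counts were 7, 8 and 0 after water, 34, 26 and 8 after 1 h in PEG, 36, 30 and 32 after 2 h and 46, 48 and 22 after 3 h. In CPM these were 1.76, 2.12 and 0 after water, and 12.2, 7.59 and 6.83 after 1 h in PEG, 6.79, 8.45 and 11.2 after 2 h and 10, 8.12 and 4.12 after 3 h, and no PEG library overlapped the water libraries. Shoots held 8.74, 13.5 and 7.18 CPM after water. The others held 15.2, 14.1 and 13 CPM after 1 h in PEG, 10.5, 21.2 and 16 CPM after 2 h and 10.7, 11.3 and 10.4 CPM after 3 h, with overlap at each hour. The root log2 fold change was 2.83 ± 0.58 (adjusted p = 0.0026), 2.75 ± 0.56 (adjusted p = 0.0018) and 2.52 ± 0.56 (adjusted p = 0.002), and the shoot values were 0.51 (adjusted p = 0.31), 0.51 (adjusted p = 0.25) and 0.13 (adjusted p = 0.75). In roots SIB1 passed the filter through PEG libraries alone, with 0 of 3 water libraries over it, and so had to differ. The root response was above the shoot response by 2.12 ± 0.60 (adjusted p = 0.025), 2.14 ± 0.61 (adjusted p = 0.025) and 2.4 ± 0.59 (adjusted p = 0.0044). The 1 h difference was lost without root water replicate 3 (1.73, adjusted p = 0.06) or shoot water replicate 2 (1.81, adjusted p = 0.079). The 2 h difference was lost with the digit as a term (3.05, adjusted p = 0.084) or without root PEG 2 h replicate 3, shoot PEG 2 h replicate 1 or shoot water replicate 2 (1.84 to 1.98, adjusted p = 0.058 to 0.09). SIB2, the close homologue of SIB1, rose in roots at 1 h (1.17, adjusted p = 0.021) and fell in shoots at 3 h (-0.72, adjusted p = 0.025). Both calls were lost with the digit as a term (adjusted p = 0.11 and 0.1).

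**Figure D2:**
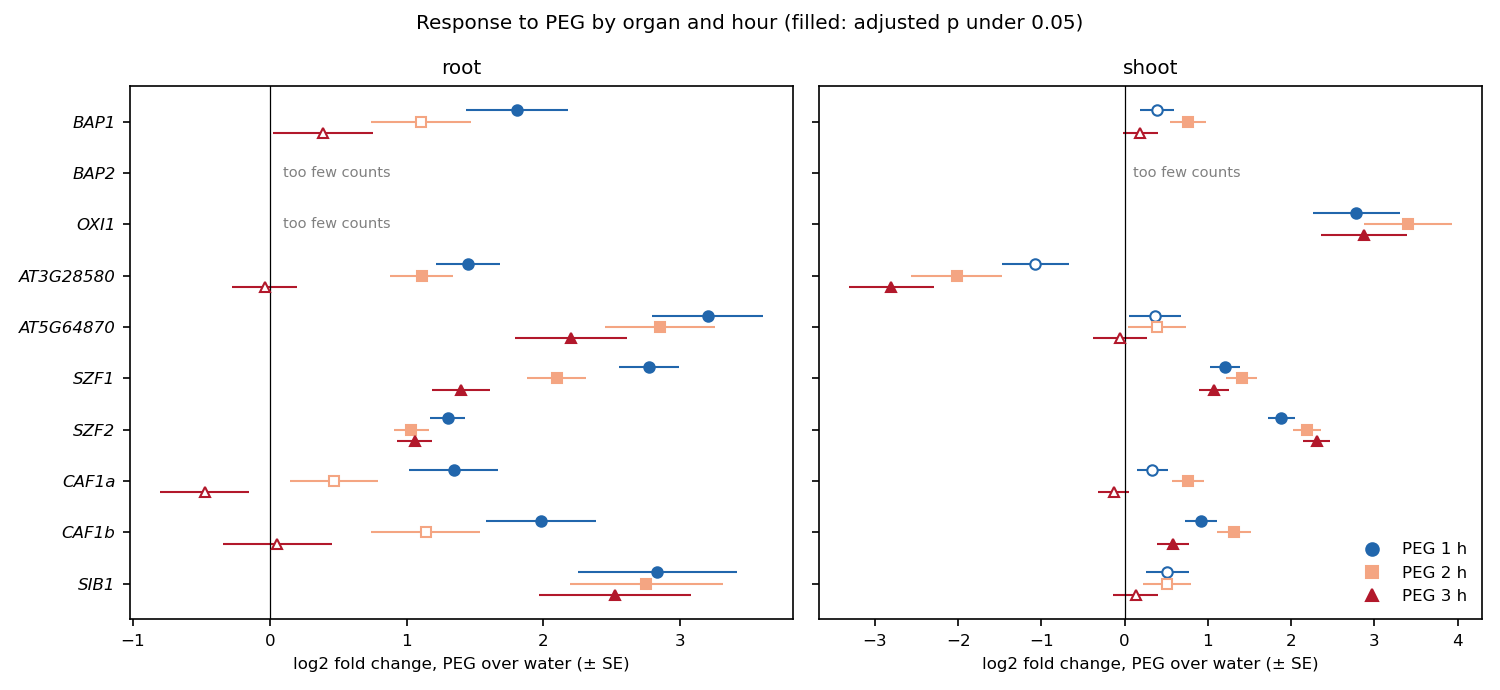
Log2 fold change over water with its standard error for each gene and hour, roots on the left and shoots on the right, with filled symbols where the adjusted p was under 0.05. In roots the values at 1 h are the highest of the 3 hours for the 8 genes tested, for SIB1 and AT5G64870 by less than the standard error, while in shoots OXI1 and SZF2 stand highest and AT3G28580 lies below 0.

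In roots the highest levels came mostly at the first hour and in shoots mostly at the second. On the scale of the organ the highest PEG group mean was at 1 h for 8 of 8 members tested in roots, as it was for 40.4% of all genes tested. SIB1 was among them by 8.88 ± 2.9 against 8.81 ± 2.22 CPM at 2 h. On the joint scale of 24 libraries its mean was higher at 2 h, which left 7 of 8, as it did without 4 of the 9 root PEG libraries in turn. In shoots it was at 2 h for 7 of 9 members (31% of all genes), at 1 h for AT3G28580 and at 3 h for SZF2. Without the shallow library, PEG 2 h replicate 2, the 7 became 5, since the means of AT5G64870 and SIB1 were then highest at 1 h. Between PEG at 3 h and PEG at 1 h in roots, 5 of 8 members were called lower (5.57% of all genes higher, 8.58% lower and 14.1% called), namely BAP1, AT3G28580 (-1.49, adjusted p = 0.00027), SZF1, CAF1a and CAF1b. AT5G64870 missed the threshold (-1.0, adjusted p = 0.071), though it was called by DESeq2 (-0.98, adjusted p = 0.018), with the replicate block (-1.01, adjusted p = 0.0011) and without PEG 3 h replicate 1 (-1.38, adjusted p = 0.0084). SZF2 (-0.24, adjusted p = 0.22) and SIB1 (-0.31, adjusted p = 0.71) were not called either. The count of 5 became 3 when only the 6 libraries compared were fitted and also without PEG 3 h replicate 2. In shoots 0 of 9 members were called between these hours by edgeR and by DESeq2 (2.06% of all genes higher, 1.63% lower and 3.68% called by edgeR). At an unadjusted p under 0.05 there were 3 of 9, the lowest being AT3G28580 (-1.73, adjusted p = 0.1). The share of all genes under that unadjusted threshold was not computed.

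The responses of the organs to PEG were then compared directly, as root minus shoot in the fit of all 24 libraries. At 1 h the difference was called above 0 for 4 of 9 members and below 0 for 1, where 2.72% of all genes were called higher, 5.16% lower and 7.89% in either direction. At 2 h it was 3 and 1 of 9 (3.35%, 4.16% and 7.5% of all genes), and at 3 h again 3 and 1 of 9 (10.1%, 6.73% and 16.8%). AT3G28580, AT5G64870 and SIB1 at all 3 hours and SZF1 at 1 h were called above 0, and SZF2 below 0 at all 3 hours. These counts hold AT3G28580 and SIB1. In the fits by organ, AT3G28580 in shoots passed the filter through water libraries alone and SIB1 in roots through PEG libraries alone. In the other organ the 3 water and 9 PEG libraries of each gene were over that organ's cutoff. A value above 0 means a larger rise or a smaller fall in roots, and for AT3G28580 at 3 h it came with a fall in shoots and no called change in roots. BAP1 (1.20, adjusted p = 0.097), CAF1a (0.79, adjusted p = 0.21) and CAF1b (0.84, adjusted p = 0.28) had positive values at 1 h that were not called. Of these, BAP1 was called by DESeq2's Wald test (1.40, adjusted p = 0.018) and with upper quartile scaling (1.48, adjusted p = 0.04), and CAF1a without root water replicate 1 (1.34, adjusted p = 0.044). CAF1b at 3 h (-0.52, adjusted p = 0.48) was called without root PEG 3 h replicate 1 (-1.01, adjusted p = 0.04). The counts of 5, 4 and 4 called members became 3, 2 and 2 with the digit as a term, and the count of 4 at 2 h became 2 without shoot PEG 2 h replicate 1.

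**Figure D3:**
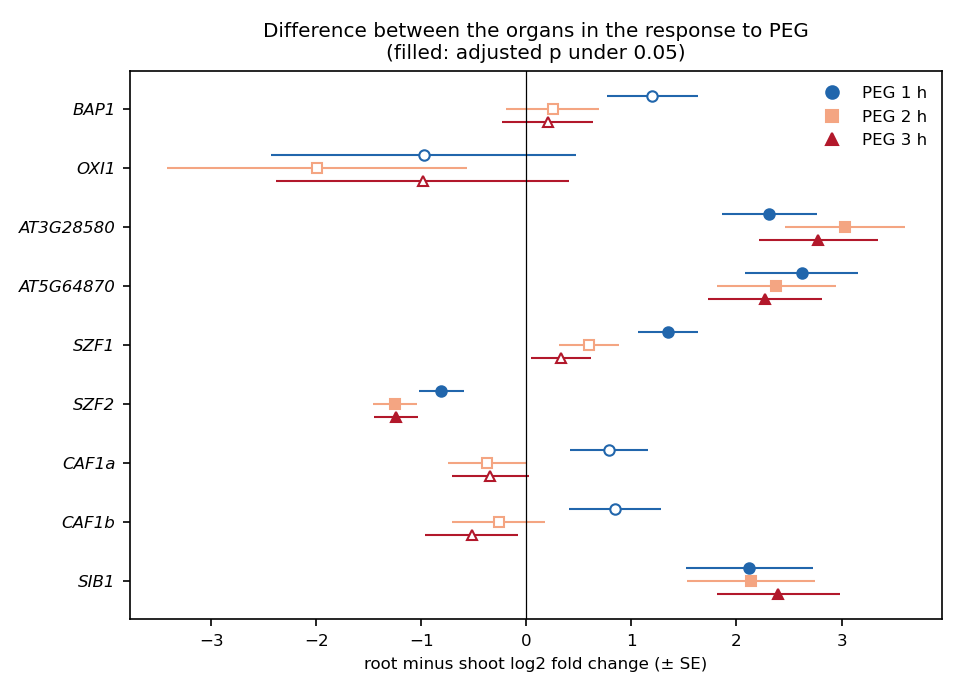
Difference between the organs in the log2 response to PEG, root minus shoot, with its standard error, by gene and hour, with filled symbols where the adjusted p was under 0.05. AT3G28580, AT5G64870 and SIB1 lie to the right of 0 and SZF2 to the left at all 3 hours, and SZF1 is filled at 1 h alone.

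In water the organs already differed in the level of most reporters, as did most genes. Of 9 members tested in the joint fit of 24 libraries, 5 were called higher and 2 lower in roots than in shoots, where 37.8% of all genes were called higher, 47.6% lower and 85.3% in either direction, and the median over all genes was -0.50. BAP1 held 137, 96.1 and 99.8 CPM in root water libraries and 20.4, 35.1 and 26.3 CPM in shoot water libraries on the joint scale (2.02, adjusted p = 5.2e-06). SIB1 held 1.91, 2.31 and 0 CPM in roots and 8.4, 13 and 6.97 CPM in shoots (-2.77, adjusted p = 2.4e-06). AT3G28580 (1.59, adjusted p = 8.4e-06), SZF2 (1.61, adjusted p = 1.8e-11), CAF1a (1.07, adjusted p = 0.00076) and CAF1b (1.34, adjusted p = 0.00067) were higher in roots, and SZF1 was lower (-0.72, adjusted p = 0.0019). AT5G64870 (0.14, adjusted p = 0.76) and OXI1 (-1.29, adjusted p = 0.23) were not called. With the digit as a term the calls of BAP1, AT3G28580, CAF1a and CAF1b were lost (1.48, 1.19, 0.57 and 1.19, with adjusted p between 0.051 and 0.4). Root and shoot water libraries carried different digits.

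The order of the 8 groups showed which levels stood apart. On the joint scale BAP1 was highest in roots after 1 h in PEG (332 ± 14.1 CPM), wholly above the group next to it, roots after 2 h (223 ± 39.2 CPM), and the means of all 4 root groups were above those of the 4 shoot groups, each of which overlapped the next. CAF1a (379 ± 28.1 CPM) and CAF1b (239.6 ± 46.6 CPM) were likewise highest in roots after 1 h with no overlap with the next group, and so was SZF1 (275 ± 31.3 CPM), whose next 5 groups, 3 of them from shoots, overlapped in turn. SZF2 was highest in roots after PEG at 1 h, 3 h and 2 h (387 ± 21.1, 383 ± 62.6 and 351 ± 39.6 CPM), groups that overlapped. The highest levels of OXI1 (7.24 ± 1.88 CPM) and SIB1 (15.3 ± 5.06 CPM) were in shoots after 2 h in PEG, each overlapping the next group. SIB1 in roots after PEG reached 8.1 to 8.93 CPM on average, which overlapped its shoot water level of 9.47 ± 3.18 CPM. For AT5G64870 the 3 root PEG groups lay above the other 5 groups, which overlapped, and for BAP2 each of the 8 groups overlapped the next.

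Within an organ the reporters varied together to different extents. Over the 12 root libraries, the 28 pairs among 8 members had correlations of log2 CPM between 0.382 and 0.975, with a median of 0.809. Over the 12 shoot libraries the 36 pairs among 9 members had correlations between -0.813 and 0.934, with a median of 0.567. These describe libraries that share treatment and scaling, and no test was made. Over the 8 group means, CAF1a and CAF1b were the most alike pair (r = 0.963). BAP1 was most like CAF1b (0.914), AT3G28580 and AT5G64870 were most like BAP1 (0.892 and 0.885), and SZF1 and SIB1 were most like each other (0.756). OXI1 and AT3G28580 were the least alike (-0.835). Over these group means, which mix the levels of both organs, SZF1 and SZF2 were each more like another member than like the other. Within an organ their correlation was 0.93 over the root libraries and 0.915 over the shoot libraries.

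Outside the list, the genes whose 8 group means were most like the mean profile of the members were DIC2 (AT4G24570, a mitochondrial dicarboxylate carrier, r = 0.997), AT4G29780 (0.985), AT5G51190 (an ERF family factor, 0.976), AT5G58680 (0.973), ERF6 (0.967) and ERF-1 (AT4G17500, 0.946). They were ranked among 10908 genes. DIC2 had log2 fold changes of 2.43, 1.85 and 1.04 in roots and 1.28, 1.52 and 0.91 in shoots at 1, 2 and 3 h, with adjusted p between 1.4e-05 and 0.034. AT5G58680 was called in roots (3.91 with adjusted p = 1.8e-06 at 1 h) and had too few counts to be tested in shoots. These likenesses are a ranking over 8 points.

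Further genes that have been reported as induced by singlet oxygen were mostly called higher. Like the members, they were chosen with earlier results of these data known, so their counts are a description. Of 12 such genes, 10 could be tested in roots and 12 in shoots, and 9, 7 and 6 were called higher in roots and 7, 8 and 7 in shoots at 1, 2 and 3 h. Among all genes 11.5%, 12.7% and 21.1% were called higher in roots and 4.25%, 8.19% and 14.5% in shoots. The shoot count at 2 h holds WRKY46, which passed the filter through PEG libraries alone. The counts became 7, 2 and 4 in roots and 9, 7 and 7 in shoots with the digit as a term. Their median log2 fold change was 1.59, 1.32 and 1.17 in roots and 1.04, 1.64 and 1.24 in shoots. WRKY33, the partner of SIB1, averaged 148 ± 15.5, 127 ± 6.6 and 88.5 ± 17.3 CPM in roots after 1, 2 and 3 h in PEG, against 30.2 ± 6.25 CPM after water. It averaged 135 ± 6.8, 158 ± 26.5 and 166 ± 21.2 CPM in shoots after PEG, against 37.8 ± 11.2 CPM after water. DREB2A, a dehydration response factor, had a log2 fold change of 5.31 (adjusted p = 7.9e-05) in roots and 4.36 (adjusted p = 2.0e-08) in shoots at 3 h. ERF5 (1.33 with adjusted p = 1.2e-05 in roots and 2.08 with adjusted p = 2.2e-07 in shoots) and ZAT12 (1.66 with adjusted p = 0.00013 and 1.64 with adjusted p = 2.1e-06) rose at 1 h in both organs. In roots 0 were called lower, and in shoots the 2 called lower were SIB2 and EDS1 at 3 h (-0.88, adjusted p = 0.049), the second of which is named here after its value was seen. Of the calls named here, that of SIB2 was lost with the digit as a term, under which the 3 called lower in shoots at 3 h were EDS1, WRKY53 (-1.9, adjusted p = 0.011) and MKS1 (-1.46, adjusted p = 0.013).

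Among genes that produce or relay the singlet oxygen signal, the NAC transcription factor ANAC102 was called higher at every hour in both organs. Of 7 such genes tested in each organ, 1, 1 and 1 rose in roots and 0, 1 and 2 fell, while 1, 1 and 2 rose in shoots and 0, 0 and 3 fell. Called in either direction were thus 1, 2 and 3 of 7 in roots, beside 20.5%, 25.1% and 40.6% of all genes, and 1, 1 and 5 of 7 in shoots, beside 5.32%, 13.8% and 26%, so the root counts were near those of all genes. ANAC102 averaged 259.8 ± 89.1, 616 ± 124 and 804 ± 114 CPM in roots after 1, 2 and 3 h in PEG, against 58.1 ± 6.45 CPM after water. In shoots it averaged 459.7 ± 120.2, 664 ± 108 and 744 ± 24.6 CPM after PEG, against 71.5 ± 12.8 CPM after water (3.79 with adjusted p = 6.3e-08 in roots and 3.38 with adjusted p = 1.6e-10 in shoots at 3 h). SCL14, a GRAS factor of detoxification, rose in shoots at 3 h (0.95, adjusted p = 0.0041). FLU, the regulator of chlorophyll synthesis, fell in roots at 2 h (-0.45, adjusted p = 0.021) and 3 h (-0.44, adjusted p = 0.013) and in shoots at 3 h (-0.39, adjusted p = 0.049), and MBS1, a zinc finger protein of singlet oxygen signalling, fell in shoots at 3 h (-0.88, adjusted p = 0.0081), as did its relative MBS2 (-0.47, adjusted p = 0.039). EX1 and EX2, the plastid proteins that relay the signal in the flu mutant, were called in no comparison of PEG with water in the fits without the digit. The calls of FLU (adjusted p = 0.21 to 0.51) and SCL14 (adjusted p = 0.1) were lost with the digit as a term, those of ANAC102 and MBS1 were kept, and EX1 was called higher in shoots at 3 h (2.06, adjusted p = 0.012). In that fit MBS1 (-1.08, adjusted p = 0.0041) and MBS2 (-0.54, adjusted p = 0.033) were also called lower in shoots at 2 h. Its counts were 1, 1 and 1 of 7 higher and 0 lower in roots. In shoots they were 1, 1 and 2 higher and 0, 2 and 2 lower.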

How the data were processed

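Transcripts were counted in 12 root and 12 shoot libraries made with MARS-seq, a method that tags and sequences the 3′ ends of pooled RNA. The authors deposited raw counts per gene together with normalized signal values, log2 values after DESeq2's regularized logarithm, and, for their own comparisons, log2 fold changes, p-values and adjusted p-values, per the file headers. Per the submitters' processing notes, bcl2fastq, cutadapt, STAR 2.4.2a, HTSeq and DESeq2 were used; their order, the genome build and the handling of molecular identifiers are not given in the sources used here, so counts may hold amplification copies. Because reads lie at transcript ends, counts are not divided by length, and levels were not compared between genes.

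All tests used the deposited counts in R 4.3.3 with edgeR 4.0.16 (limma 3.58.1): TMM scaling, filterByExpr, robust quasi-likelihood fits and Benjamini-Hochberg adjustment over all genes tested, with calls at an adjusted p under 0.05. Each organ was fitted with its 12 libraries and 4 group means (10941 genes in roots and 13769 in shoots), and the organs were compared in a fit of 24 libraries (15472 genes). The filter asked for about 2.48 CPM in roots and 3.11 CPM in shoots in at least 3 libraries. Standard errors are the log2 fold change divided by the square root of the F statistic. Alternatives were DESeq2 1.42.0, other scalings, no filter, no robust option, other sets of libraries, the library code digit or the replicate letter as a term, each library left out, and the authors' deposited table. The digit fits of the related gene lists, the joint scale and libraries left out for the hour of the highest mean, upper quartile scaling and the authors' table were chosen after seeing the data. Replicates came from separate pools of seedlings, and water was sampled at 1 h only, so time in solution and PEG cannot be told apart at 2 and 3 h. The members and gene lists were chosen with earlier results of these data known. At most 4 genes of a list are named, those with the lowest adjusted p against water, plus relatives called against their member; EX1, EX2, MBS2, MPK6, SIG1, EDS1, WRKY46, WRKY53 and MKS1 were named beyond this rule after their values were seen. The promoter window of SZF1 came from the RefSeq annotation of TAIR10.1, in which 18125 of 18240 gene identifiers were found. Sequence around the starts of the other members is not reported here.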

Additional observations from a re-analysis of the deposited data

Results flagged for a closer look

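The response to PEG differed between the organs for 5 of the reporters, by the test of root minus shoot response in edgeR's fit of 24 libraries, and each of these differences is listed here on the log2 scale. AT3G28580 had root minus shoot values of 2.31 (adjusted p = 0.0015), 3.03 (adjusted p = 0.00081) and 2.78 (adjusted p = 0.0008) at 1, 2 and 3 h. Its shoot value was the farther from 0 at 2 h, and at 3 h it was called in shoots alone. In the fit of the shoot libraries it passed the filter on low counts through water libraries alone and so had to be lower after PEG there. For AT5G64870 the root response was above the shoot response by 2.62 (adjusted p = 0.0028), 2.38 (adjusted p = 0.0087) and 2.27 (adjusted p = 0.0046). SIB1 likewise responded more in roots, by 2.12 (adjusted p = 0.025), 2.14 (adjusted p = 0.025) and 2.4 (adjusted p = 0.0044), and its level in root PEG libraries overlapped that in shoot water libraries. The difference of SZF1 was called at 1 h, with 1.35 (adjusted p = 0.0029), and at 2 h it was called without shoot PEG 2 h replicate 3 (1.05, adjusted p = 0.027). SZF2 had larger log2 fold changes in shoots, with root minus shoot values of -0.81 (adjusted p = 0.014), -1.25 (adjusted p = 0.00026) and -1.24 (adjusted p = 8.5e-05). On the joint scale its mean in water was 60 CPM in shoots and 184 CPM in roots. After PEG the mean was 221, 270 and 296 CPM in shoots and 387, 351 and 383 CPM in roots at 1, 2 and 3 h. In the fit that included the digit of the library codes, the differences of AT3G28580 at 3 h (3.17, adjusted p = 0.26), AT5G64870 at 2 h and 3 h (2.91, adjusted p = 0.087, and 3.09, adjusted p = 0.1), SIB1 at 2 h (3.05, adjusted p = 0.084), SZF1 at 1 h (1.18, adjusted p = 0.073) and SZF2 at 1 h were lost. The 1 h difference of SZF2 was kept under 6 of 19 alternatives, over which it ran from -0.95 to -0.48 with a highest adjusted p of 0.31. Those of SIB1 at 1 h and 2 h and of AT5G64870 at 2 h were also lost when single libraries were left out, as given above.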

How the results depend on the processing

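Of the 58 calls among the members, 32 were kept under every alternative run. The library code digit as a term moved the count of called members most, to 5 in roots at 1 h, 2 in roots at 3 h, 2 in shoots at 3 h, 3 between the organs in water, and 3, 2 and 2 for the difference between the organs at 1, 2 and 3 h. In the fit of only the 6 libraries compared, 3 were called between PEG at 3 h and 1 h in roots. The cause was not tested. With each library left out in turn, called members ranged from 7 to 8, 5 to 5 and 4 to 5 in roots at 1, 2 and 3 h, from 4 to 4, 4 to 7 and 4 to 5 in shoots. They ranged from 3 to 6 and 0 to 0 between PEG at 3 h and 1 h in roots and shoots, from 7 to 7 in water, and from 3 to 5, 2 to 5 and 4 to 5 for the difference between the organs. The 4 in shoots at 2 h came without water replicate 1. Other settings did add calls in roots at 2 h, where BAP1 and CAF1b were both called by DESeq2 (adjusted p = 0.03 and 0.037). Both were also called by edgeR without the robust option (adjusted p = 0.0096 and 0.012) and in the fit of all 24 libraries (adjusted p = 0.018 and 0.019). The same held with only the 6 libraries compared (adjusted p = 2.5e-05 and 7.2e-05) and in the authors' deposited table (adjusted p = 0.011 and 0.013). Libraries of the same replicate letter shared little of their deviations from the group means. Median correlations were 0.022 in roots, -0.053 in shoots and 0.018 between root and shoot of the same treatment. Roots and shoots of a replicate may still be paired, since seedlings were parted after the treatment. The main fit of 24 libraries held no such pairing. The replicate block for 24 libraries took root and shoot of the same treatment and letter as 1 pool. With the replicate block, 8, 6, 4 and 6 members were called in roots (1, 2 and 3 h, and 3 h against 1 h) and 4, 7, 5 and 0 in shoots, adding BAP1 at 2 h (1.11) and AT5G64870 between the hours (-1.01), and no other call changed.

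Some log2 values that were not called changed sign. With the digit as a term they were -0.43 (AT5G64870 in water), -0.36 (BAP1, shoot 3 h), 0.092 (CAF1a, organ difference at 3 h), -0.37 (CAF1b, root 3 h), -0.061 (OXI1, shoot 3 h against 1 h), 0.0069 (SIB1, root 3 h against 1 h) and -0.23 (SIB1, shoot 3 h). AT5G64870 in water was at -0.10 with DESeq2, RLE size factors and the authors' deposited table and at -0.087 with upper quartile scaling. AT3G28580 in roots at 3 h was at 0.016 with upper quartile scaling, and CAF1b in roots at 3 h was at -0.031 in the authors' deposited table. With 1 library left out, values spanned 0 in roots at 3 h for AT3G28580 (-0.24 to 0.20), BAP1 (-0.025 to 0.75) and CAF1b (-0.46 to 0.40). In shoots at 3 h this held for AT5G64870 (-0.37 to 0.14), CAF1a (-0.28 to 0.020) and SIB1 (-0.052 to 0.41). Between 3 h and 1 h it held for OXI1 in shoots (-0.079 to 0.25) and SIB1 in roots (-0.57 to 0.034), and in water for AT5G64870 (-0.31 to 0.33). Organ differences that spanned 0 were those of OXI1 at 1 h (-2.06 to 0.052), CAF1a at 2 h (-0.55 to 0.21) and 3 h (-0.77 to 0.11), CAF1b at 2 h (-0.43 to 0.23) and BAP1 at 3 h (-0.18 to 0.57). Depth limits BAP2 in both organs, OXI1 in roots and AT3G28580 in shoots.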

Other observations

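Some genes tied to hydrogen peroxide, another reactive oxygen species, were called in roots, and none were in shoots in the fit without the digit of the library codes. Of 8 such genes tested in roots, 1, 2 and 2 were called higher and 2, 1 and 3 lower at 1, 2 and 3 h, and of 7 tested in shoots 0 were called at any hour by edgeR's quasi-likelihood test (1, 0 and 1 at an unadjusted p under 0.05, and 0, 0 and 1 in the fit with the digit of the library codes). Among all genes 20.5%, 25.1% and 40.6% were called in roots and 5.32%, 13.8% and 26% in shoots, so counts over so few genes do not set the list apart. For the unadjusted threshold the share of all genes was not computed. FER1, a ferritin gene, averaged 1088 ± 78.4 CPM in roots after 3 h in PEG, against 398 ± 36.3 CPM after water (1.45, adjusted p = 2.0e-07), and CAT3, a catalase gene, fell at each hour (-0.45 with adjusted p = 0.013, -0.59 with adjusted p = 0.0011 and -0.79 with adjusted p = 4.1e-05), which was not kept with the digit as a term at 1 h and 2 h (adjusted p = 0.24 and 0.22). APX2, an ascorbate peroxidase gene, was called higher in roots at each hour from low counts, with 3.03 ± 3.25, 5.98 ± 2.01 and 4.9 ± 0.542 CPM after 1, 2 and 3 h in PEG, against 0.166 ± 0.145 CPM after water. It passed the filter on low counts through PEG libraries alone, which favours a rise. Without it 0, 1 and 1 of 7 were called higher in roots. In the fit with the digit 1, 2 and 2 of 8 were called higher in roots and 0, 0 and 1 lower. The root minus shoot response was called above 0 for 0, 1 and 1 of the 8, APX2 included, at 1, 2 and 3 h. It was called below 0 for 0, 0 and 1. Among all genes 2.72%, 3.35% and 10.1% were called above 0 and 5.16%, 4.16% and 6.73% below 0.

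Of the plastid sigma factors, 1 of which is a partner of SIB1, several were called in shoots at the last hour. Of 6 tested in shoots, 0, 0 and 4 rose at 1, 2 and 3 h, namely SIG5 (1.38, adjusted p = 0.0092), SIG4 (0.84, adjusted p = 0.0075), SIG3 (0.77, adjusted p = 0.023) and SIG6 (0.65, adjusted p = 0.025) at 3 h, where 14.5% of all genes were called higher. With the digit as a term 0, 2 and 3 of 6 were called, namely SIG3 and SIG5 at 2 h and SIG3, SIG4 and SIG5 at 3 h, while SIG6 was not (1.06, adjusted p = 0.075). At an unadjusted p under 0.05, for which the share of all genes was not computed, there were 0 and 2 of 6 at 1 h and 2 h. In roots 2 could be tested and 0 were called, also at an unadjusted p under 0.05. SIG1 was not called in shoots at 3 h (0.11, adjusted p = 0.75).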
